A study of Mus musculus with 12 samples.

Results

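The mouse chromosome 15 genes Atf4, Tomm22, Gramd4, Mgat3 and Tspo were followed across 12 pools of dorsal root ganglia, where sensory neurons of the trunk and limbs have their cell bodies. They were chosen because, in these same data, their signal set the pools titled 5 and 6 apart from the pools titled 1 to 4 in mutants and in controls alike. All 7 probes annotated to these 5 genes were used, out of 25697 probes on the array and 16593 genes with a named probe, of which 626 lie on chromosome 15. The difference between the pool sets is therefore described without a test, and only the comparison of genotypes is tested. The choice bears on that test too, because a division shared by both genotypes adds to the spread within each. Of the 7 probes, 6 were detected in all 12 pools. Gramd4 was detected in 8 of 12, and it passed the detection filter through the pools in which it was bright.

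The 6 mutant pools came from mice in which Isl1-driven Cre recombinase targets Maf, the gene of the transcription factor c-Maf, and the 6 control pools from mice that the labels call wildtype. Isl1 is active in sensory neurons, so other cells of the ganglion may keep Maf. All mice were 15 days old and of a mixed C57/BL6 and 129Ola background, each pool held ganglia of lumbar levels 3 to 6, and total RNA was hybridised to single-colour Illumina BeadChips. Pools 1 to 3 of each genotype lay on one chip, and pools 4 to 6 of each genotype on another, so that the second chip held both sets. The labels do not say how many mice made up a pool, and p-values measure the spread between pools, which may be technical.

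The genotype labels and the tissue were checked first. Maf was detected in 0 of 6 mutant pools and in 6 of 6 control pools (log2 level 4.57 ± 0.08 and 7.44 ± 0.29, SD, n = 6 each). The neuronal genes Prph, Avil, Nefm, Isl1 and Pou4f1 were detected in all 12 pools, Tubb3 was detected in 6, and Nefl did not pass the filter. Between 12822 and 13491 probes were detected per array. Mutant pool 3 stood a little apart, with a median correlation of 0.981 with the other arrays, where the other 11 arrays had 0.986 to 0.989.

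Several of the members act at mitochondria or in stress responses. Atf4 encodes a basic leucine zipper factor whose translation rises when the initiation factor eIF2 is phosphorylated, and which then switches on genes of amino acid supply and redox balance, the integrated stress response. Tomm22 encodes a receptor subunit of the translocase through which most mitochondrial proteins enter. Gramd4 encodes a GRAM domain protein that in human cells has been linked to mitochondria and cell death, and Tspo a cholesterol-binding protein of the outer mitochondrial membrane that is abundant in macrophages and glia and rises after nerve injury. Mgat3 encodes the Golgi enzyme that adds the bisecting N-acetylglucosamine to N-glycans.

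Atf4 was low in all 4 pools titled 5 or 6. Its log2 level, after background correction and quantile normalization, was 7.51 and 7.46 in mutant pools 5 and 6 and 7.48 and 7.33 in control pools 5 and 6. Against these stood 9.27, 9.18, 10.64 and 9.90 in mutant pools 1 to 4, and 10.02, 9.08, 9.23 and 9.99 in control pools 1 to 4. The 2 sets did not overlap, and a gap of 1.56 lay between their nearest pools. The means were 7.45 ± 0.08 (SD, n = 4) in pools 5 and 6 and 9.66 ± 0.55 (SD, n = 8) in pools 1 to 4. The log2 difference, averaged over genotypes, was -2.22, a 4.65-fold lower signal in pools 5 and 6. It was of like size within mutants (-2.26) and within controls (-2.18). On the second chip alone, where pools 5 and 6 could be set against pool 4, it was -2.50.

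Before any correction the Atf4 probe gave intensities of 236 and 234 in mutant pools 5 and 6 and 211 and 219 in control pools 5 and 6. In pools 1 to 4 the raw intensities ran from 643 to 1531 in mutants and from 582 to 1134 in controls. The split is thus present in the deposited intensities. Detection held in all 12 pools, so that Atf4 was dimmer in pools 5 and 6 without being lost.

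Tomm22 followed the same division. Mutant pools 5 and 6 stood at 7.66 and 7.48 and control pools 5 and 6 at 7.48 and 7.57. Mutant pools 1 to 4 stood at 9.06, 9.11, 9.38 and 9.94, and control pools 1 to 4 at 9.83, 8.99, 9.01 and 9.74. The sets lay 1.33 apart at their nearest pools, with means of 7.55 ± 0.09 (SD, n = 4) and 9.38 ± 0.40 (SD, n = 8). The difference was -1.84, or 3.57-fold lower in pools 5 and 6, with -1.81 in mutants and -1.87 in controls.

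The promoters of Atf4 and Tomm22 are shown because each has a single start in the RefSeq table (build GRCm38.p6), which matched 3 of the 5 members. Both genes were chosen for the same division of the pools, so nothing about shared regulation is read from it. Each sequence is the 250 bases before the start, on the plus strand, at chr15:80254934-80255183 for Atf4 and chr15:79670618-79670867 for Tomm22. Capitals mark the CCAAT box (CCAAT) and the ETS core (TTCCGG), searched on both strands. The array's probe sequences were not used here.
Atf4: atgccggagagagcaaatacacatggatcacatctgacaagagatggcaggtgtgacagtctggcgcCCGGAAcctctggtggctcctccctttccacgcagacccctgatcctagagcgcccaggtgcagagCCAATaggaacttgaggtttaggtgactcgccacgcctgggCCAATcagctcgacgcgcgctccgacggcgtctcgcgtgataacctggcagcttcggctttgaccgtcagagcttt
Tomm22: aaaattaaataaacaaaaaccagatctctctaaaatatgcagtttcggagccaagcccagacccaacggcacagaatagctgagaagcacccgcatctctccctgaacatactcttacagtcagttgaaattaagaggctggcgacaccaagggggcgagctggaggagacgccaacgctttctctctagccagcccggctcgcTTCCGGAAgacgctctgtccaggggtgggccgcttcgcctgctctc

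The Atf4 window held 2 CCAAT boxes and 1 ETS core, and the Tomm22 window 0 CCAAT boxes and 2 overlapping ETS cores on opposite strands. Of all 32851 promoter windows of the same length, 33.8% held CCAAT and 12% held TTCCGG. The GC box GGGCGG, present in 32.7% of windows, was found in neither. These matches describe the letters of the windows alone.

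Gramd4 divided the pools between detected and not detected. Its probe was detected in 0 of the 4 pools titled 5 or 6, with detection p-values from 0.305 to 0.683, and in 8 of 8 pools titled 1 to 4. Raw intensities were 62 and 64 in mutant pools 5 and 6 and 69 and 72 in control pools 5 and 6, against 198 to 327 in mutant pools 1 to 4 and 166 to 339 in control pools 1 to 4. Corrected log2 levels were 4.54 and 4.55 in mutant pools 5 and 6 and 4.73 and 4.72 in control pools 5 and 6. The other mutant pools stood at 7.30, 7.12, 8.21 and 7.88, and the other control pools at 8.06, 6.89, 7.51 and 8.02. Set against the lowest signal detected on the same arrays, the mean of pools 5 and 6 was at least 5.07-fold lower than that of pools 1 to 4 under this background correction alone (measured means 4.64 and 7.62). That bound does not hold under every setting, because the measured difference of -2.99 depends on the background value. It was -1.98 with a larger normexp offset, -1.90 without background correction and -3.50 in the authors' processed table.

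Mgat3 was lower in pools 5 and 6 by a smaller amount. Mutant pools 5 and 6 both stood at 7.43, and control pools 5 and 6 at 7.18 and 7.55. Mutant pools 1 to 4 stood at 8.23, 8.58, 7.87 and 8.55, and control pools 1 to 4 at 8.84, 8.09, 8.01 and 8.90. The sets did not overlap, with a gap of 0.32 between control pool 6 and mutant pool 3. The difference was -0.99, or 1.98-fold lower, with -0.88 in mutants and -1.09 in controls.

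Tspo went the opposite way, and it is the member with more than 1 probe. All 3 of its probes are annotated to the same transcript. On probe ILMN_2877069 mutant pools 5 and 6 stood at 9.02 and 9.14 and control pools 5 and 6 at 9.05 and 9.09. Mutant pools 1 to 4 stood at 8.54, 8.85, 8.12 and 8.18 and control pools 1 to 4 at 8.02, 8.64, 8.60 and 8.16. Every pool titled 5 or 6 thus lay above every other pool, by a gap of 0.17, and the difference was 0.68, or 1.61-fold higher.

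The other Tspo probes moved in the same direction by like amounts. On ILMN_2727921 mutant pools 5 and 6 stood at 8.19 and 8.13 and control pools 5 and 6 at 8.12 and 8.02, against 7.06 to 7.63 in mutant pools 1 to 4 and 7.03 to 7.46 in control pools 1 to 4. That probe differed by 0.83, with a gap of 0.39. On ILMN_2727920 the sets overlapped, since mutant pool 2 (7.88) lay above mutant pool 6 (7.84) and control pool 5 (7.80), and the difference was 0.72. Its pools 5 and 6 averaged 7.94 ± 0.15 (SD, n = 4) and its pools 1 to 4 averaged 7.21 ± 0.47 (SD, n = 8). For Tspo 2 probes divided the pools and the third had the same direction with overlapping sets. For Atf4, Tomm22, Gramd4 and Mgat3 a single probe each was available, and there a loss of signal particular to the probe and a lower transcript cannot be told apart. Whether a sequence difference between the C57/BL6 and 129Ola backgrounds lies under any of these probes was not tested, so the values are differences in probe signal and need not be differences in transcript level.

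**Figure D1:**
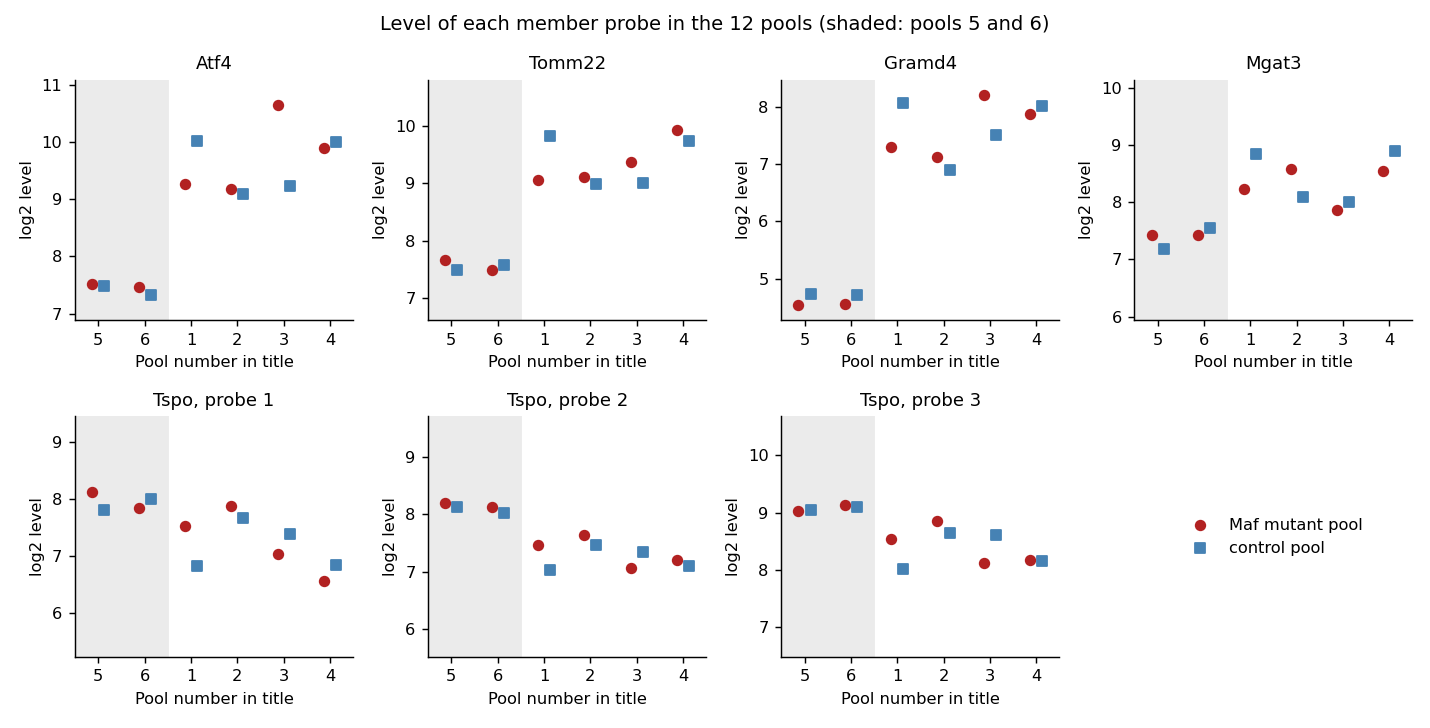
Log2 level (vertical axis, of the same span in each panel) of each of the 7 member probes in mutant pools (circles) and control pools (squares), by the pool number of the title, with pools 5 and 6 shaded. Tspo probes 1 to 3 are ILMN_2727920, ILMN_2727921 and ILMN_2877069. Atf4, Tomm22, Gramd4 and Mgat3 are low and Tspo is high in the shaded pools of each genotype.

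Within each set the members behaved differently. Pools 5 and 6 were tight, spanning 0.18 for Atf4, 0.18 for Tomm22, 0.18 for Gramd4, 0.37 for Mgat3 and 0.12 to 0.32 for the Tspo probes. Pools 1 to 4 spanned 1.56 for Atf4, 1.32 for Gramd4, 0.95 for Tomm22, 1.02 for Mgat3 and 0.60 to 1.32 for Tspo. A span over 8 pools tends to be wider than a span over 4. The SDs of the member probes ran from 0.05 to 0.16 in pools 5 and 6 and from 0.22 to 0.55 in pools 1 to 4. The members were chosen because these sets stand apart, which favours tight sets. The narrow span of Gramd4 in pools 5 and 6 is that of an undetected probe.

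Within pools 1 to 4 most member probes had a shared order. The rule that chose the members did not use this order, although they were chosen with earlier results of these data known. For Atf4, Gramd4 and Tomm22 the same 4 pools were the highest of the 8, namely mutant pools 3 and 4 and control pools 1 and 4. The same 4 pools were the lowest of the 8 on each of the 3 Tspo probes. A step of 0.64 for Atf4, 0.37 for Gramd4 and 0.28 for Tomm22 separated those 4 pools from mutant pools 1 and 2 and control pools 2 and 3. On the Tspo probes that step was 0.14 to 0.36. Mgat3 shared 3 of the 4 highest pools with Atf4. Its exception was mutant pool 3, the lowest of the 8 for Mgat3 (7.87) and the highest for Atf4 (10.64). The steps of Atf4, Gramd4, Tomm22 and Tspo fell across genotypes, since mutant pools 3 and 4 and control pools 1 and 4 comprise 2 of each genotype. They did not fall evenly across chips. Those 4 pools held 2 from each chip, while mutant pools 1 and 2 and control pools 2 and 3 all lay on the first chip. The step was always taken between the upper 4 and the lower 4 of the 8 pools, and it was not the widest for every probe. For Tomm22, control pool 4 (9.74) and mutant pool 3 (9.38), both among the 4 highest, lay further apart than the step. On ILMN_2727921 the same held for mutant pools 2 (7.63) and 1 (7.47). No correlation is given. The share of all tested probes with the same 4 pools highest or lowest is not given either, and the 3 Tspo probes are annotated to the same transcript. Nothing is therefore read from how often the order recurs.

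The members ranked high among all probes when the width of the gap between the nearest pools of the sets was used as the measure of likeness over 12 pools. Of the 7 member probes 6 had sets that did not overlap, while this held for 57 of 13177 tested probes (0.433%), 41 of them lower in pools 5 and 6 (0.311%) and 16 higher (0.121%). With median scaling and no background correction the count was 47, with 23 lower and 24 higher. The members were chosen on this contrast, so nothing is read from their share. Gramd4, Atf4 and Tomm22 had the 3 widest gaps with this processing, where the gap of Gramd4 takes its size from the background value of an undetected probe. Tspo followed in the fourth place, Mgat3 in the fifth, and a further Tspo probe in the eighth, while ILMN_2727920 stood at 296. The sixth place was held by Them6, a further chromosome 15 gene (7.57 ± 0.08 in pools 5 and 6 and 6.81 ± 0.41 in pools 1 to 4, SD, n = 4 and 8). Prg2, the eosinophil major basic protein gene on chromosome 2, came seventh (6.01 ± 0.17 and 5.01 ± 0.38). Ikbip on chromosome 10 (gap 0.12) and Tmem74 on chromosome 15 (gap 0.11) completed the first 10. With 1 pool left out the count of 57 ranged from 70 to 151, and 6 or 7 member probes were among those counted.

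**Figure D2:**
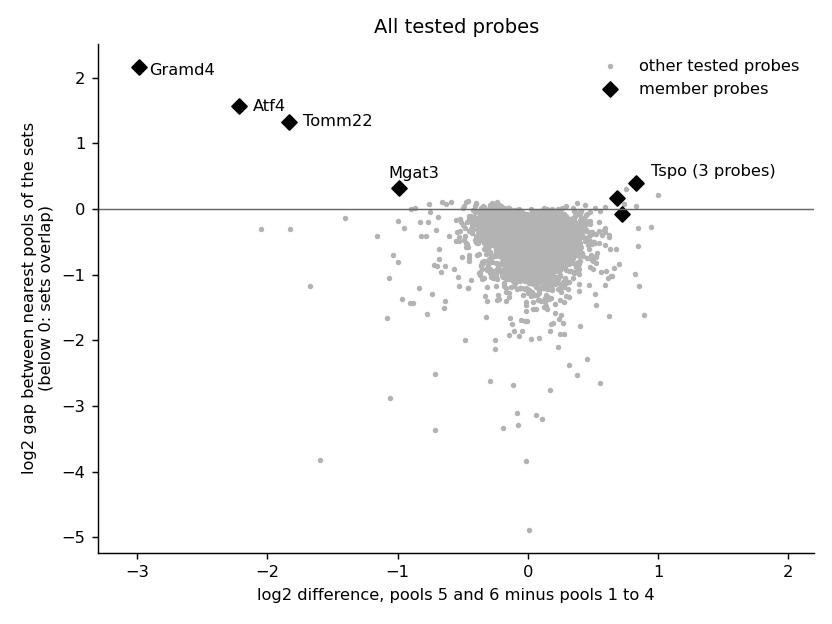
Each point is 1 of 13177 tested probes, with the log2 difference of pools 5 and 6 minus pools 1 to 4 on the horizontal axis and the log2 gap between the nearest pools of the sets on the vertical axis. Values above 0 mark sets that do not overlap. Gramd4 (gap 2.16), Atf4 (1.56) and Tomm22 (1.33) lie far above the other probes.

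Size alone did not set the members apart to the same degree. With this processing Gramd4, Atf4 and Tomm22 ranked 1, 2 and 4 of 13177 by absolute difference, Mgat3 17, and the Tspo probes 32, 43 and 51. The difference of Atf4 was the larger of the first 2 with offset 50 (-2.02, and -1.98 for Gramd4) and with median scaling (-1.91 and -1.90). The probe in the third place, for Prkag2 on chromosome 5, had a difference of -2.05 with overlapping sets. Over all tested probes the difference ran from -0.36 at the first percentile to 0.38 at the 99th, and 14 probes were past 1 in size.

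Chromosome 15 held 14 probes whose sets did not overlap among 521 tested (2.69%), members included. With the members left out, the share was 8 of 514 (1.56%), while it was 37 of 11878 probes (0.312%) on the other chromosomes pooled. The chromosome was singled out through the members, so neither of its shares is independent of their choice. The highest share on any other chromosome was 0.932%, on chromosome 13 (4 of 429). These 14 probes belong to 13 genes. Arc and Cerk are among them, and 10 more lie between these, among 152 tested genes of that interval. In chromosome order, counted over 392 tested genes, the members stood at place 209 (Tomm22), 219 (Mgat3), 221 (Atf4), 261 (Tspo) and 275 (Gramd4).

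The genes next to the members were read as well, and some of them divided the pools. The members were chosen for their difference, so nothing is read from most neighbours differing less. Mief1, which encodes a mitochondrial fission factor, lies between Mgat3 and Atf4 in the order of tested genes and differed by -0.08 with overlapping sets. Rps19bp1, on the other side of Atf4, differed by -0.03. Next to Tomm22, Cby1 stood at 0.00 and Josd1 at 0.03, and next to Tspo, Mcat stood at -0.13 and Ttll12 at 0.06. On one side of Gramd4 lay Celsr1, at -0.28 with overlapping sets, and on the other Cerk, with -0.40 on a probe whose sets did not overlap and 0.14 on a brighter one. Among the 40 tested genes within 5 places of a member, the members left out, 23 were lower and 17 higher in pools 5 and 6, with a median of 0.00 and a range from -0.76 (Kdelr3) to 0.60 (Efcab6). Over chromosome 15, 13 of 392 tested genes had a probe with sets that did not overlap, and the 5 members are counted there. So are the 3 such genes among these 40. They were Kdelr3, a receptor that returns proteins to the endoplasmic reticulum (7.10 ± 0.27 in pools 5 and 6 and 7.85 ± 0.32 in pools 1 to 4), Pdgfb, the B chain of platelet-derived growth factor (6.73 ± 0.29 and 7.32 ± 0.22), and Cerk, ceramide kinase (5.42 ± 0.03 and 5.81 ± 0.18, SD, n = 4 and 8 for each gene). Between Atf4 and Tspo lay 39 tested genes, and between Tspo and Gramd4 another 13, with 0 such genes in either interval.

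**Figure D3:**
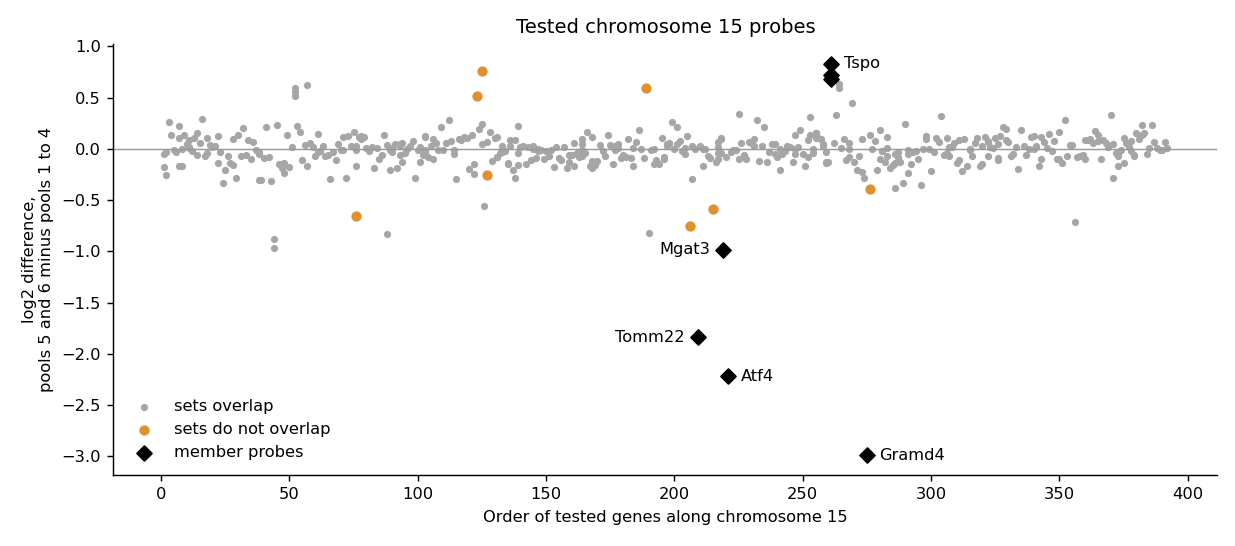
Log2 difference of pools 5 and 6 minus pools 1 to 4 (vertical axis) for 521 tested probes of chromosome 15, by the place of the gene among 392 tested genes along the chromosome (horizontal axis). Diamonds are the member probes, which lie from -2.99 to 0.83, and large circles are the other probes whose sets do not overlap.

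Probes of the same gene could be compared for 5 of the 13 chromosome 15 genes with a division. In 0 of the 5 did every tested probe divide the pools. All probes had the same direction in 2 of them, Tspo and Them6. In Them6 the dividing probe differed by 0.76, while the others differed by 0.04 and 0.24. For Tmem74 the dividing probe stood at -0.66 and the other 3 at -0.17, -0.01 and 0.03. Cerk showed -0.40 on its dimmer probe and 0.14 on its brighter one, and Lynx1 showed -0.26 and 0.06. Tspo, with 0.68, 0.72 and 0.83, was the gene of the 5 whose probes differed least in size from each other. On the other chromosomes 18 genes with a dividing probe had several tested probes, all probes divided in 0 of them, and the direction was shared in 8.

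No member probe was called for genotype. In 7 probes that count is near the background share of 0.235%, and nothing is read from it. In the comparison of 6 mutant with 6 control pools, 0 of the 7 member probes passed a limma adjusted p of 0.05, and 0 had an unadjusted p under 0.05, beside 31 of 13177 probes called (0.235%), 28 of them lower (0.212%) and 3 higher (0.0228%) in mutants, and 835 with an unadjusted p under 0.05. Atf4 averaged 8.99 ± 1.28 in mutants and 8.86 ± 1.19 in controls (SD, n = 6 each), a log2 change of 0.14 (95% interval -1.15 to 1.43, limma adjusted p = 0.987). Gramd4 averaged 6.60 ± 1.64 in mutants and 6.66 ± 1.56 in controls, a change of -0.06 (interval -1.72 to 1.61). Tomm22 averaged 8.77 ± 0.99 in mutants and 8.77 ± 1.03 in controls (interval of the change -1.05 to 1.05). Mgat3 changed by -0.08 (interval -0.72 to 0.57), and the 3 Tspo probes by 0.05, 0.07 and 0.10, with adjusted p-values of the 7 probes from 0.976 to 1.0.

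Each genotype held pools of both sets, and the intervals were wide. The members were chosen for that shared division, which a fit of genotype alone counts as spread. The choice itself thus made a call for genotype unlikely. The standard error of the genotype change was 0.60 for Atf4, 0.78 for Gramd4 and 0.49 for Tomm22, where the median over all tested probes was 0.10. Within the sets, mutant and control means lay close. Atf4 stood at 7.49 in mutant and 7.41 in control pools 5 and 6, and at 9.75 in mutant and 9.58 in control pools 1 to 4. Tomm22 stood at 7.57 in mutant and 7.53 in control pools 5 and 6, and at 9.37 in mutant and 9.39 in control pools 1 to 4.

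**Figure D4:**
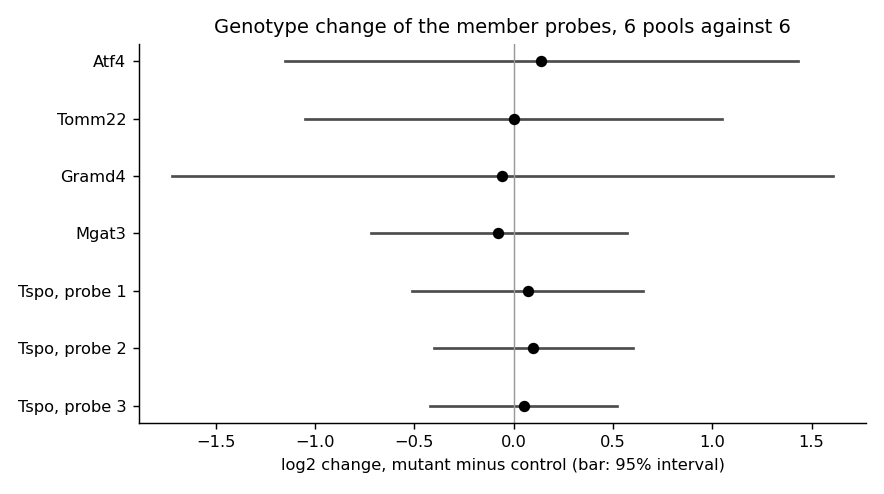
Log2 change of each member probe, mutant minus control (point), with its 95% interval from limma (bar), from 6 pools of each genotype. Every interval spans 0, and the widest is that of Gramd4, from -1.72 to 1.61.

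Genes that work with the members were read from 6 lists. The lists that follow were chosen with earlier results of these data known, and counts are set beside the median over 9223 genes, which was 0.00. Of 34 tested ATF4 target and stress response genes 26 were lower and 8 higher in pools 5 and 6, with a median difference of -0.07, and the sets overlapped for all 34. As 0.433% of all tested probes had sets that did not overlap, a count of 0 in lists of this size is near the background, and nothing is read from it here or in the lists below. Slc3a2, the heavy chain of amino acid transporters, differed most (6.53 ± 0.14 in pools 5 and 6 and 6.97 ± 0.41 in pools 1 to 4, SD, n = 4 and 8). Slc7a5, a light chain that pairs with it, differed by -0.25, the folate enzyme Mthfd2 by -0.24 and the arginine transporter Slc7a3 by -0.22. The list stood 0.57 above its mean in mutant pool 3, the pool with the highest Atf4 level, and between -0.12 and 0.02 in the other 11 pools. Without mutant pool 3 the split of the list was 18 lower and 16 higher, with a median of -0.03, and the difference of Atf4 was -2.07. The 4 pools with the lowest Atf4 signal had list scores of -0.09 to -0.02. The other 8 pools ran from -0.12 to 0.57, and from -0.12 to 0.02 without mutant pool 3. Whether the list follows the Atf4 signal was not tested.

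For every tested gene of the remaining lists the sets overlapped as well. For eIF2, its exchange factor and its kinases the median of 9 tested genes was 0.01, from -0.30 (Eif2s2) to 0.33 (Eif2ak2, the kinase PKR). Mitochondrial import, Tomm22 left out, had a median of 0.00 over 14 genes, from -0.16 (Tomm70a) to 0.11 (Tomm34). That list counted 8 lower and 6 higher, and 4 lower and 10 higher with median scaling and no background correction, where the median of all genes was 0.023. Among 8 tested partners of Tspo in cholesterol and steroid handling the median was 0.00, and Dbi, the ligand protein also called acyl-CoA-binding protein, stood at 13.13 ± 0.04 in pools 5 and 6 and 13.17 ± 0.09 in pools 1 to 4. Enzymes of N-glycan branching had a median of 0.03 over 11 genes, and Man2a1, a Golgi mannosidase, differed most (0.26). Of the other GRAM domain genes Gramd1a (-0.08) and Gramd1b (-0.03) were tested. No gene of any of these lists was called for genotype (limma, adjusted p under 0.05). Beside 0.235% of all tested probes that is near the background, and nothing is read from it.

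**Figure D5:**
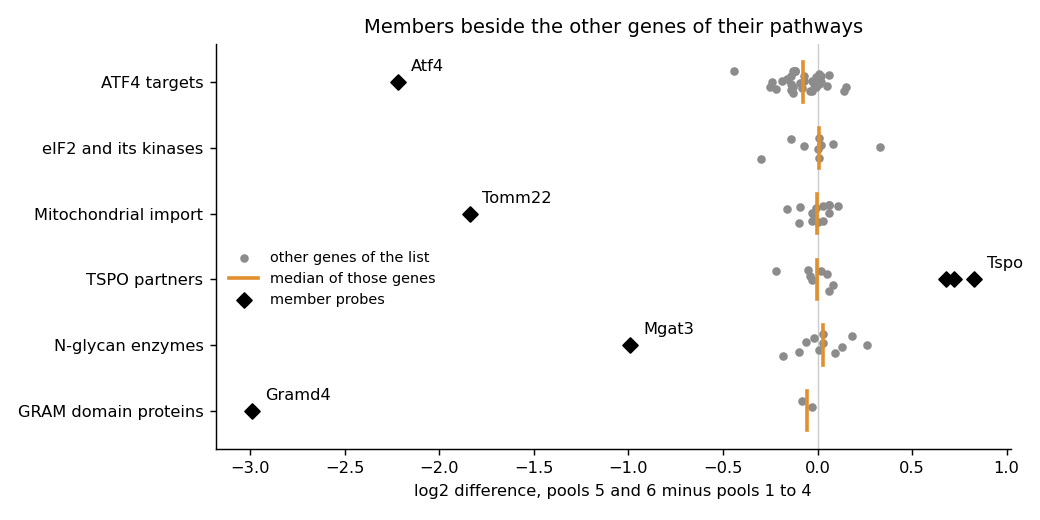
Log2 difference of pools 5 and 6 minus pools 1 to 4 (horizontal axis) for the tested genes of 6 pathway lists (circles), their median (orange bar) and the member probes that belong to the pathway (diamonds). The other genes lie between -0.44 (Slc3a2) and 0.33 (Eif2ak2).

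Cell type markers were read beside Tspo and the other members. In whole ganglia, fewer cells of a type and less RNA per cell cannot be told apart. Of 7 tested macrophage genes 5 were lower and 2 higher in pools 5 and 6 (median -0.07), with values from -0.20 (Aif1) to 0.10 (Cx3cr1). Their summed normalized intensity ran from 813 to 995 in pools 5 and 6, inside the range of 637 to 1173 in pools 1 to 4. The 3 tested glial genes Mbp, S100b and Fabp7 had differences of -0.04, -0.06 and -0.43, and their sums, from 6834 to 9310 in pools 5 and 6 and from 7611 to 10540 in pools 1 to 4, overlapped. Neuronal genes had a median of 0.06 over 6, endothelial genes -0.01 over 2, and fibroblast genes -0.15 over 3. The sets overlapped for every tested gene of these lists, which beside 0.433% of all probes is near the background, and each tested macrophage gene was detected in at least 10 pools. The part of cell makeup in the members' division was not tested.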

How the data were processed

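The deposited intensity of each probe is a GenomeStudio bead summary, per the submitters' processing notes (version not given), without normalization between arrays. The detection p-value of each probe was deposited beside its intensity, per the file headers, and how it was computed is not stated. A deposited table of processed intensity, whose making is not stated, ranked the probes of each array exactly as the raw values did (Spearman correlation 1) and served as an alternative. Log2 values came from the neqc function (normexp, offset 16, quantile normalization), run with limma 3.58.1 and R 4.3.3. Of 25697 probes, 13177 had a detection p below 0.05 on 6 or more of the 12 arrays and were tested. Genotype was fitted alone with lmFit and eBayes, with Benjamini-Hochberg adjustment over all tested probes. The fit was tested on simulated data.

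Gene names came from the platform annotation, and the order of genes from RefSeq (GRCm38.p6), whose build was not matched to the array. A gene of a list was read by its brightest tested probe. Named were the members, Maf, neighbours within 5 places whose sets do not overlap, the 10 named probes with the widest gap, and up to 4 genes per list. Adjacent genes and probe pairs named beyond this were chosen after their values were seen. Members and lists were chosen with earlier results of these data known. Alternatives were other background corrections, filters, blocks, chips and pools left out. The number of arrays limits the precision.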

Additional observations from a re-analysis of the deposited data

How the results depend on the processing

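Over 146 genotype values of the member probes under the alternatives, 0 passed the threshold (lowest limma adjusted p 0.875) and 34 had the opposite sign, none past the threshold in either direction. With 1 pool left out the genotype change ran from -0.19 to 0.44 for Atf4, -0.44 to 0.36 for Gramd4, -0.26 to 0.26 for Tomm22, -0.26 to 0.08 for Mgat3, and -0.05 to 0.26, -0.01 to 0.22 and -0.06 to 0.15 for Tspo probes ILMN_2727920, ILMN_2727921 and ILMN_2877069. It turned for Gramd4 to 0.05 on chip 1 and 0.00454 in the processed table, for Tomm22 to -0.09 on chip 1 and -0.000492 with offset 50, and for ILMN_2727920 to -0.04 on chip 2. The probes called for genotype numbered 31, and 4 on chip 1 and 1 on chip 2 alone, where fewer pools were compared. Over all tested probes the deviations of same-numbered pools correlated by -0.118 to 0.185, above 0.1 for 3 of 6 numbers, so the numbers were not taken to pair the samples, although the members were chosen for a division that same-numbered pools share. With the replicate block 23 probes were called and the standard error was 0.22 for Atf4, 0.16 for Gramd4 and 0.14 for Tomm22 (0.60, 0.78 and 0.49 without it), with no member called (adjusted p from 0.916 to 1.0).

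The difference between the pool sets kept its sign for all 7 probes under all 18 alternatives each. The members were chosen on this difference. For the 6 probes whose sets do not overlap, leaving out pools, a genotype or a chip could not turn the sign. Nothing is read from those alternatives. The Gramd4 value was -1.98 with offset 50, -1.90 with median scaling and -3.50 in the processed table, as an undetected probe takes its value from the background. On chip 2 alone Tomm22 stood at -2.29 and ILMN_2727920 at 1.24, where pools 5 and 6 are set against pool 4 only. Tomm22 stood at 9.94 in mutant pool 4 and 9.74 in control pool 4, among its highest pools. ILMN_2727920 stood at 6.56 in mutant pool 4 and 6.84 in control pool 4, among its lowest. Why pool 4 differed from pools 1 to 3 was not tested. Probes whose sets do not overlap numbered 57, 97 without the detection filter, 1297 on chip 2 alone, 1295 in mutants alone and 1641 in controls alone, where fewer pools have to be separated. With 1 pool left out the count ran from 70 to 151, and it exceeded 57 by over 1.5 times without mutant pool 3 (99), 4 (94), 5 (117) or 6 (134) or control pool 5 (151) or 6 (114). The 57 split into 41 lower and 16 higher, and the 47 found with median scaling into 23 lower and 24 higher.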

Other observations

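The Y-linked gene Eif2s3y was detected in 6 pools, at log2 levels from 8.86 to 9.38, and not in the other 6, at 4.41 to 4.63. Mutant pools 1, 4 and 5 and control pools 1, 2 and 6 were those with signal. Each kind comprised 2 of the 4 pools titled 5 or 6 and 4 of the 8 pools titled 1 to 4, so that the division of the chromosome 15 genes ran across this one. It also ran across the order within pools 1 to 4, in which mutant pool 4 and control pool 1 had Eif2s3y signal and mutant pool 3 and control pool 4 had none. Y-linked Kdm5d was detected in the same 6 pools as Eif2s3y. The brighter Xist probe stood at 5.48 to 6.05 in those pools and at 7.55 to 8.53 in the other 6. Uty, also Y-linked, was detected in all 12 pools, at 5.63 to 6.46, and did not divide them.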
